A study of Mus musculus with 12 samples.

Results

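Amino acid transporters of the mouse blastocyst were examined as a set of 9 genes picked by symbol from the 34245 genes of the deposited expression table: Slc7a5, Slc3a2, Slc7a1, Slc7a3, Slc38a1, Slc38a2, Slc1a4, Slc1a5 and Slc6a14. All 9 were found. The embryos came from F1 (C57Bl6 x CBA/W) mice, were taken at the 2-cell stage and were grown to E3.5 in KSOM medium with amino acids at 0.5X. Pools of 30 blastocysts then received either DMSO (control) or 20 µM SB220025, an inhibitor of p38-MAPK (p38-MAPKi), for 4, 7 or 10 h, with the solvent at 0.2 to 0.5% in each arm. Each of the 6 groups had 2 biological replicates, which gave 12 libraries of poly(A) RNA. Every library mixed trophectoderm and inner cell mass.

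Amino acids enter cells through families of carriers that differ in the amino acids they accept and in the ion gradients they use. Some are driven inward by sodium, and others exchange one amino acid for another, so that the concentrative carriers supply the substrates that the exchangers trade. In the blastocyst the trophectoderm takes up leucine and arginine from its surroundings, and this uptake is known to feed mTORC1 signaling and the protrusive activity that precedes implantation.

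Expression was given in RPKM, the reads of a gene scaled by its exon length and by the depth of the library, and changes were given on the log2 scale. No RNA had been spiked in, and a value therefore gives the share of the library that a gene takes up. Control libraries held 17097676 and 18262011 reads at E3.5 + 4 h, 21112831 and 23352633 after 7 h, and 19039078 and 23287564 after 10 h. The p38-MAPKi libraries held 24337845 and 21618041, 11242313 and 17435561, and 22019720 and 24457312 reads at the same times. The first replicate of p38-MAPKi at 7 h was the shallowest library and had reads in 14113 genes, against 16455 to 17757 in the other libraries. A gene was tested with limma where at least 2 libraries of the comparison reached 1 RPKM, and it was taken as changed at an adjusted p under 0.05. By this filter 8 of the 9 transporters were tested in each comparison, and Slc7a3 was left out of each.

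Marker genes described the tissue. Of the trophectoderm markers 10 of 12 reached 1 RPKM in at least 1 library, with Elf5 and Dlx3 below, and the most abundant was Krt18 with a mean of 1169 RPKM. All 12 epiblast markers (most abundant Pou5f1, 427 RPKM) and 10 of 12 primitive endoderm markers (Gata6, 103 RPKM, with Sox7 and Foxa2 below) reached it. Markers of tissues around the embryo were low. None of the 9 cumulus and granulosa markers reached 1 RPKM (most abundant Amh, 0.396 RPKM, with Has2, Ptx3 and Tnfaip6 without a read), nor any of the 6 fibroblast markers (Pdgfrb, 0.165 RPKM, with Col1a2, Col3a1, Dcn and Lum without a read). In the oviduct list 1 of 6 did (Ovgp1, 0.673 RPKM on average, with Muc16 and Wt1 without a read), and in the blood and immune list 2 of 9 did (Cd68, 4.80 RPKM, with Hbb-bt, Hbb-bs, Hba-a2, Ptprc and Lyz2 without a read). The summed level per library lay between 0.230 and 1.52 RPKM for cumulus and granulosa, between 0.156 and 0.558 RPKM for fibroblasts and between 0.553 and 1.35 RPKM for the oviduct. The other blood marker was Hba-a1, which reached 1 RPKM in 1 library (1.01 RPKM). The libraries thus held the markers of the 3 blastocyst lineages.

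The transporters fell into functional pairs. Slc3a2 (ENSMUSG00000010095.13, chromosome 19, 8706882 to 8723369) encodes CD98 heavy chain, which carries the light chain encoded by Slc7a5 (ENSMUSG00000040010.10, chromosome 8, 121881150 to 121907694) to the membrane, where the heterodimer exchanges large neutral amino acids such as leucine. Slc7a1 (ENSMUSG00000041313.14, chromosome 5, 148327410 to 148399904) and Slc7a3 (ENSMUSG00000031297.14, chromosome X, 101079210 to 101086020) encode carriers of the cationic amino acids arginine and lysine. Slc38a1 (ENSMUSG00000023169.15, 96571418 to 96642913) and Slc38a2 (ENSMUSG00000022462.7, 96687394 to 96699698), neighbours on chromosome 15, encode sodium-coupled system A carriers of alanine, glutamine and other small neutral amino acids. Slc1a4 (ENSMUSG00000020142.12, chromosome 11, 20302180 to 20332713) and Slc1a5 (ENSMUSG00000001918.17, chromosome 7, 16781340 to 16798274) encode sodium-dependent exchangers of alanine, serine and cysteine, of which Slc1a5 also carries glutamine. Slc6a14 (ENSMUSG00000031089.7, chromosome X, 21714896 to 21742355) encodes a sodium- and chloride-coupled carrier of broad scope that concentrates neutral and cationic amino acids and is known for leucine uptake by trophoblast. Positions are those of GRCm38. Of the 9 genes only Slc7a5 overlapped another gene of the table, Gm20388 on the opposite strand (119910841 to 124345722, mean of 13.0 RPKM), and whether reads were counted by strand is not stated in the sources used here.

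RefSeq promoters (250 bases before to 50 after the start of transcription, GRCm38.p6) were at hand for 5 of the 9 genes, and Slc7a5, Slc7a3, Slc38a1 and Slc1a5 had no entry. Shown here are Slc6a14, Slc38a2 and Slc1a4, the 3 called lower at the threshold in a comparison averaged over the times that was chosen after the data were seen, at chrX:21714650-21714949 on the + strand, chr15:96699679-96699978 on the - strand and chr11:20332664-20332963 on the - strand. Capitals mark letters that match an AP-1 motif, TGANTCA, or an amino acid response element, TGATGNAA, on either strand.
Slc6a14: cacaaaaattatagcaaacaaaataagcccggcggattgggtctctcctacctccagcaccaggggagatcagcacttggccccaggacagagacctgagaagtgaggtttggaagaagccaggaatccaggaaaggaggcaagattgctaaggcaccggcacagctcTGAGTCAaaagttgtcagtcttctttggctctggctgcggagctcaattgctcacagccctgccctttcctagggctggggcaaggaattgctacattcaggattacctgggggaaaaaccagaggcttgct
Slc38a2: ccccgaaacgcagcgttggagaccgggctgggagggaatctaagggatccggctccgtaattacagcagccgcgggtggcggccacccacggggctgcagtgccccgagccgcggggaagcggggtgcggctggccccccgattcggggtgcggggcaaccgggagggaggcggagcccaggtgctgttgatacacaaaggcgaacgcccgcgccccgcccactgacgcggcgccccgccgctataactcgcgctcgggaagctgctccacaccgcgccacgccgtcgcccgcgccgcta
Slc1a4: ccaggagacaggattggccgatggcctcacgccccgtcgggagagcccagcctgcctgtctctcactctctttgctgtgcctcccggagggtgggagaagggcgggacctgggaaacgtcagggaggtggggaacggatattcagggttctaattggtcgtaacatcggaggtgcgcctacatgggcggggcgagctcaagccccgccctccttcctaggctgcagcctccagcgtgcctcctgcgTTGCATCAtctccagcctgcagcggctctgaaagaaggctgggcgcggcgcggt

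The Slc6a14 window held TGAGTCA beginning 82 bases before the start, and the Slc1a4 window held TTGCATCA, the reverse strand of the response element, beginning 4 bases before it. Neither motif was found in the 300 bases of Slc38a2. TGANTCA was present in 2565 of 32851 promoters (7.81%), among them also Slc7a1, and TGATGNAA in 1304 (3.97%). The windows differed in composition. That of Slc38a2 was 73% G and C with 41 CpG, that of Slc1a4 was 65% with 21 CpG, and that of Slc6a14 was 52.7% with 4 CpG. A match describes the letters alone, and bases outside these windows were not searched for any gene.

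In control blastocysts the heavy chain was the most abundant of the 9. Over the 6 control libraries the mean was 47.2 ± 3.98 RPKM (SD, n = 6) for Slc3a2, 25.6 ± 3.06 for Slc7a5, 11.7 ± 1.55 for Slc1a5, 9.45 ± 1.92 for Slc6a14 and 5.61 ± 0.876 for Slc38a1. The other 4 were lower, with 2.75 ± 0.898 RPKM (SD, n = 6) for Slc38a2, 2.06 ± 0.758 for Slc1a4, 1.57 ± 0.323 for Slc7a1 and 0.712 ± 0.267 for Slc7a3. Slc3a2 and Slc7a5 stood at percentiles 96.5 and 93.1 of all genes of the table, and Slc7a3 at percentile 66.8. The ranges of the 6 libraries did not overlap between Slc3a2 and Slc7a5, Slc7a5 and Slc1a5, Slc6a14 and Slc38a1, or Slc38a1 and Slc38a2. They overlapped between Slc1a5 (8.72 to 13.1 RPKM) and Slc6a14 (6.97 to 12.5), between Slc38a2 and Slc1a4, between Slc1a4 and Slc7a1, and between Slc7a1 and Slc7a3. Compared within each library, the order of these neighbours was turned in 1 of 6 libraries for Slc1a5 and Slc6a14 and in 2 of 6 for Slc1a4 and Slc7a1, which did not differ beyond their spread. It was turned in 0 of 6 for Slc38a2 and Slc1a4 and in 0 of 6 for Slc7a1 and Slc7a3. The plot of levels per library shows all 12 values of each gene.

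**Figure D1:**
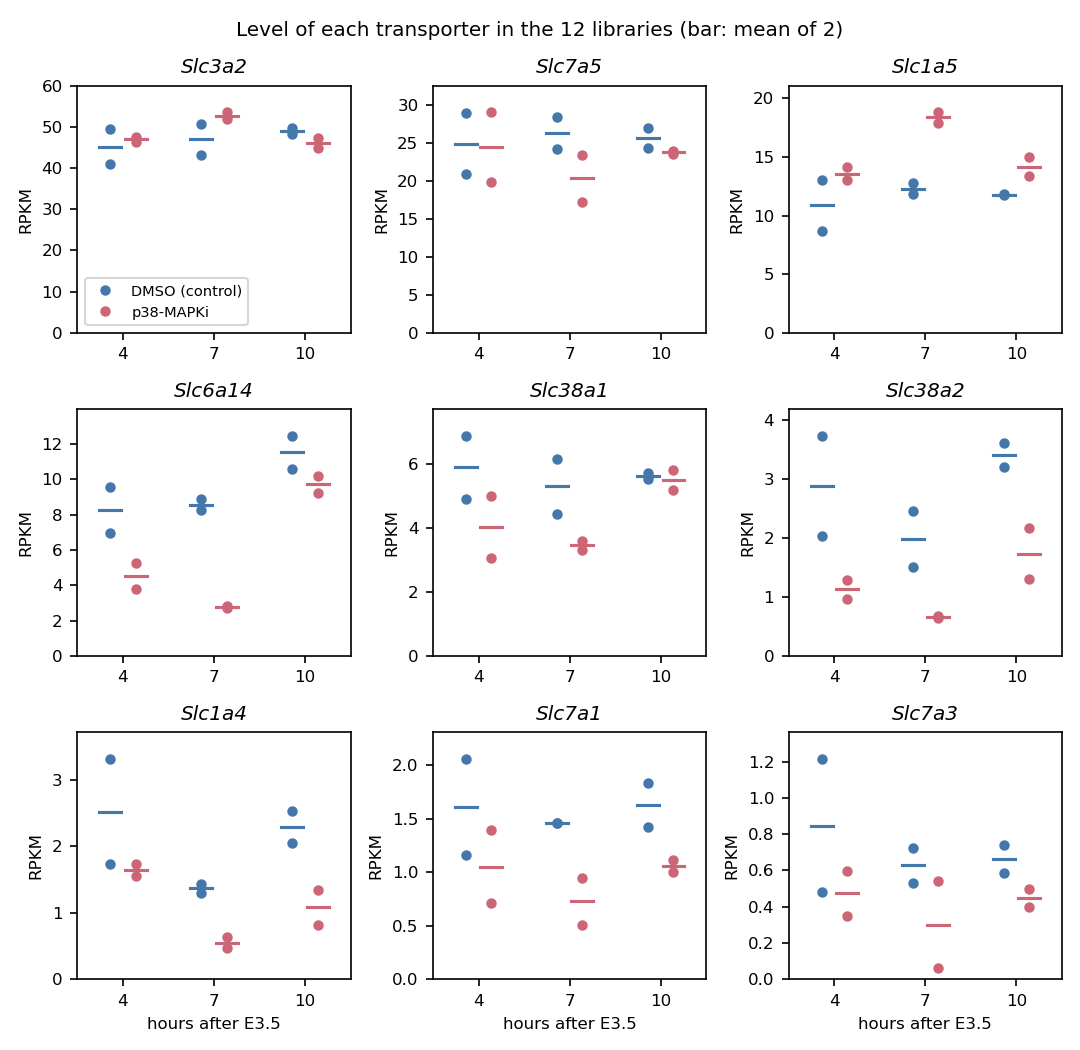
Level in RPKM (vertical axes from 0, a separate scale for each gene) of the 9 transporters against hours after E3.5, with 1 point per library and a bar at the mean of 2 libraries, control in blue and p38-MAPKi in red. The p38-MAPKi points of Slc6a14 at 7 h (2.80 and 2.69 RPKM) lie under all 6 control points, and those of Slc1a5 at 7 h (18.8 and 17.9) lie over all 6.

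Summed over the 9 genes, the level was 88.0 and 118 RPKM in control and 106 and 89.99 RPKM in p38-MAPKi after 4 h. It was 109 and 101 RPKM in control against 98.4 and 102 RPKM in p38-MAPKi after 7 h, and 109 and 115 against 101 and 106 RPKM after 10 h. The 2 groups overlapped at 4 and 7 h and were apart at 10 h, with control higher. The sum was mostly the system L pair, at 62.0 to 78.4 RPKM in each library.

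The change with time was read in the control alone. No transporter was called from 4 h to 7 h (limma, 0 of 8 tested, against 0.492% of all genes). The same held between 7 h and 10 h (0 of 8, against 0.0552%) and between 4 h and 10 h (0 of 8, against 0.471%). At an unadjusted p under 0.05 were 1, 3 and 1 of 8, against 516 of 10776, 412 of 10873 and 1646 of 10825 genes. The median over all tested genes was 0.11, 0.02 and 0.14 in these comparisons, and that over the transporters was -0.01, 0.13 and 0.09. Control replicate 1 of 4 h had 79.5% of its depth in reads counted in genes, against 84.9% to 91.0% in the other libraries. Its median log2 RPKM over expressed genes was 2.73, against 2.93 in replicate 2, and its part in these medians was not tested. Slc6a14, the trophoblast leucine carrier, had 8.27 ± 1.84, 8.55 ± 0.452 and 11.5 ± 1.33 RPKM (SD, n = 2) at 4, 7 and 10 h, and both libraries of 10 h were above the 4 earlier ones. Its log2 difference was 0.49 ± 0.17 (SE) for 10 h against 4 h (limma, adjusted p = 0.231) and 0.43 ± 0.14 for 10 h against 7 h (adjusted p = 0.9997). Slc38a2 and Slc1a4 had their lowest control means at 7 h, 1.98 ± 0.663 and 1.37 ± 0.0967 RPKM (SD, n = 2), between 2.88 ± 1.21 and 3.396 ± 0.287 for Slc38a2 and between 2.52 ± 1.13 and 2.29 ± 0.339 for Slc1a4 at 4 and 10 h. For Slc1a4 both libraries of 7 h were below those of 4 h (-0.81 ± 0.33, limma adjusted p = 0.719) and below those of 10 h (0.73 ± 0.25, adjusted p = 0.9997).

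Calls in these comparisons turned on settings and on single control libraries. With all libraries kept, Slc6a14 at 10 h against 4 h was called under 2 of 11 other settings, the replicate block (limma adjusted p = 0.0293) and a filter at 10 RPKM (0.0430), with a range to 0.681. Without replicate 2 of 4 h, 10 h against 4 h was called for Slc6a14 (0.72, limma adjusted p = 0.0270) and Slc1a5 (0.43, adjusted p = 0.0499), and without replicate 1 of 7 h, 10 h against 7 h was called for Slc38a2 (1.17, adjusted p = 0.0379). The small differences of Slc7a5, Slc3a2, Slc7a1 and Slc6a14 since 4 h changed sign when libraries were centred on their medians or quantile normalized, as did others without 1 library. Centring brought the median of all genes to 0.000312 for 7 h against 4 h and to 0.000389 for 10 h against 4 h. In control 7 h against 4 h and in p38-MAPKi at 4 h, limma gave each gene the variance common to genes of its level, so that a gene's own replicates did not set its error.

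After p38-MAPKi the broad-scope carrier Slc6a14 was called lower at 4 h and at 7 h. No other transporter was called at any of the 3 times by this fit. At E3.5 + 4 h limma called 1 of 8 tested transporters lower, Slc6a14, against 0.288% of all genes, and 0 higher, against 0.621%. At an unadjusted p under 0.05 were 3 of 8, against 1016 of 10781 genes. Both p38-MAPKi libraries were below both control libraries for 2 of 8, Slc6a14 and Slc38a2 (13.7% of all genes), and above them for 0 (26.8%). After 7 h, 1 of 8 was called lower, again Slc6a14 (1.2%), and 0 higher (0.932%), with 4 of 8 unadjusted (3102 of 10940 genes). The p38-MAPKi libraries were below for 6 of 8 (38.7%) and above for 2 of 8, Slc1a5 and Slc3a2 (23%). However, 3 of the 6, Slc38a2, Slc1a4 and Slc7a1, met the filter through control alone, with both p38-MAPKi libraries under 1 RPKM, so that the filter itself fixed their direction. Of the 5 transporters that reached 1 RPKM in both groups, 3 were below (38.1% of such genes) and 2 above (22.4%). After 10 h, 0 were called lower (0.465%) or higher (0.338%), with 3 of 8 unadjusted (2172 of 10959 genes). The libraries were apart below for 6 of 8 (29.6%) and above for 1, Slc1a5 (22.6%).

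The median log2 change of the 8 tested transporters was -0.56 at 4 h, -0.84 at 7 h and -0.18 at 10 h, and that of all tested genes was 0.07, -0.14 and -0.02. Without the 3 that met the filter through control alone, the median at 7 h was -0.38. The 3 time points used different libraries. Centring each library on its median moved the median over all genes at 7 h from -0.14 to 0.05, and by this scaling Slc6a14 was at -1.44 and Slc38a2 at -1.35 there. In such bulk samples fewer cells of a type and less RNA per cell cannot be told apart.

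**Figure D2:**
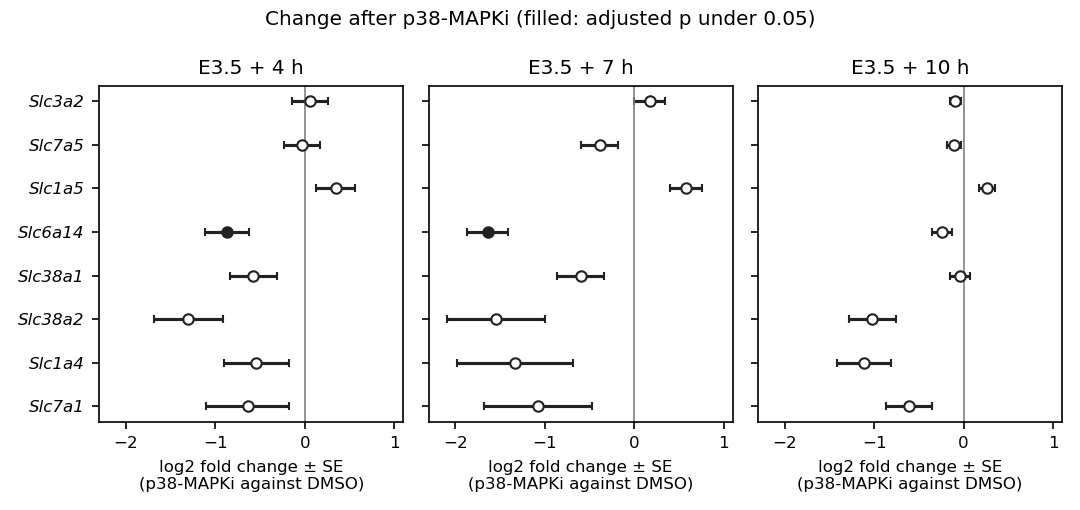
Log2 change of the 8 tested transporters (in the order of their control level) in p38-MAPKi against control at the 3 time points, with the standard error of limma as bars and filled points at an adjusted p under 0.05. The filled points are Slc6a14 at 4 h (-0.87) and at 7 h (-1.64), and Slc1a5 is to the right of 0 in each panel (0.35, 0.58 and 0.26).

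Slc6a14, the broad-scope carrier, had 6.97 and 9.57 RPKM in the control libraries of E3.5 + 4 h, 8.87 and 8.23 at 7 h, and 10.6 and 12.5 at 10 h. In p38-MAPKi it had 5.26 and 3.77 RPKM at 4 h, 2.80 and 2.69 at 7 h, and 9.23 and 10.2 at 10 h. The p38-MAPKi libraries were thus below the control libraries of the same time at all 3 times, widest apart at 7 h, and at 10 h those of p38-MAPKi were higher than every control library of 7 h. The reads behind these values were 409 to 997 in control and 108 to 856 in p38-MAPKi. Slc6a14 fell by 0.87 ± 0.245 (SE) on the log2 scale at 4 h (limma, adjusted p = 0.0418), 1.83-fold, in 2 of 2 libraries. It fell by 1.64 ± 0.23 at 7 h (adjusted p = 0.0397), 3.11-fold, in 2 of 2 libraries. At 10 h the difference was -0.24 ± 0.11 (adjusted p = 0.284). The change at 10 h less that at 7 h was 1.40 ± 0.20 (limma interaction, adjusted p = 0.0646), at 7 h less that at 4 h -0.77 ± 0.34 (adjusted p = 0.661), and at 10 h less that at 4 h 0.63 ± 0.29 (adjusted p = 0.510). None of these differences between times passed the threshold for Slc6a14. Among all genes the interactions called 0.00877%, 0.00884% and 0% of those tested, and for the transporters 0 of 8 in each. At an unadjusted p under 0.05 were 1, 1 and 0 of 8, against 2995 of 11400, 772 of 11311 and 1113 of 11288 genes.

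The call of Slc6a14 at 4 h was made under 3 of 10 other settings of the processing (adjusted p from 0.0167 to 0.388) and was lost without control replicate 1 (-1.10, limma adjusted p = 0.388), control replicate 2 (-0.64, 0.867) or p38-MAPKi replicate 2 (-0.63, 0.462). At 7 h it was made under 6 of 10 settings (0.00208 to 0.158) and lost with median centring (-1.44, adjusted p = 0.0694), quantile normalization (-1.44, 0.0567), the trend on gene length removed (-1.67, 0.0994) or no variance trend (0.158), and without control replicate 1 (-1.59, 0.0532) or replicate 2 (-1.69, 0.281). The interaction of 10 h with 7 h passed at 10 RPKM (0.0334) and with voom (0.0247), 2 of 11 settings with a range to 0.128, and without control replicate 1 of 7 h (1.34, adjusted p = 0.0280) or p38-MAPKi replicate 2 of 7 h (1.37, 0.00943). The direction was the same in each of these fits.

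Slc38a2, the system A carrier known to be induced when amino acids run short, had 2.02 and 3.73 RPKM in control at 4 h, 2.45 and 1.51 at 7 h, and 3.599 and 3.19 at 10 h. In p38-MAPKi it had 1.28 and 0.970 RPKM at 4 h, 0.673 and 0.645 at 7 h, and 1.30 and 2.16 at 10 h. The p38-MAPKi libraries were below those of control at every time point, and those of 7 h were the lowest of the 12. Only 35 and 52 reads stood behind the values of p38-MAPKi at 7 h, against 97 to 344 in the other 10 libraries. At 7 h Slc38a2 met the filter through control alone, so its direction there was fixed by the filter, and with no filter its adjusted p was 0.0716. The log2 difference was -1.30 ± 0.39 (SE) at 4 h (limma, adjusted p = 0.0636), -1.54 ± 0.55 at 7 h (0.112) and -1.02 ± 0.26 at 10 h (0.109), which is 2.47-, 2.92- and 2.03-fold. None of the 3 passed the threshold by this fit. With all libraries kept, 4 h passed with log2(RPKM + 1) (limma adjusted p = 0.0459, highest of 10 settings 0.353), 7 h with 1 fit over 12 libraries (0.0177) and voom (0.0453, highest 0.167), and 10 h with voom (0.0332, highest 0.809). Each also passed in some fits with 1 library left out. Without p38-MAPKi replicate 1 of 4 h it was -1.502 (adjusted p = 0.00709), without replicate 1 or 2 of p38-MAPKi at 7 h -1.58 (0.0488) and -1.51 (0.0149), and without replicate 2 of p38-MAPKi at 10 h -1.39 (0.0385).

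Its neighbour on chromosome 15, Slc38a1, was the more abundant of the system A pair. It ranged from 4.43 to 6.89 RPKM in control and from 3.05 to 5.81 RPKM in p38-MAPKi. The log2 difference was -0.58 ± 0.26 (SE) at 4 h with overlapping libraries (limma, adjusted p = 0.424, and 0.0343 without p38-MAPKi replicate 1, at -0.93). It was -0.60 ± 0.26 at 7 h with libraries apart (0.175), and -0.04 ± 0.11 at 10 h with libraries overlapping (0.885). The ratio of Slc38a1 to Slc38a2 was 2.43 and 1.85 in control and 3.92 and 3.14 in p38-MAPKi at 4 h. It was 2.52 and 2.94 against 5.34 and 5.14 at 7 h, and 1.53 and 1.80 against 4.49 and 2.40 at 10 h. The ratio was higher in both p38-MAPKi libraries than in both control libraries at each time. At 7 h it rested on Slc38a2, whose direction the filter fixed there.

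Slc1a4, one of the 2 alanine, serine and cysteine exchangers, had 1.73 and 3.32 RPKM in control at 4 h, 1.30 and 1.44 at 7 h, and 2.05 and 2.53 at 10 h. In p38-MAPKi it had 1.74 and 1.56 RPKM at 4 h, 0.634 and 0.467 at 7 h, and 0.821 and 1.34 at 10 h. The groups overlapped at 4 h, and p38-MAPKi was below control in both libraries at 7 h and at 10 h. At 7 h the p38-MAPKi values rested on 28 and 32 reads, and Slc1a4 met the filter there through control alone, which fixed its direction (adjusted p with no filter 0.135). The log2 difference was -0.54 ± 0.36 (SE) at 4 h (limma, adjusted p = 0.685), -1.33 ± 0.65 at 7 h (0.211) and -1.11 ± 0.30 at 10 h (0.120), so none passed by this fit. At 7 h it passed under 1 of 10 other settings, 1 fit over 12 libraries (0.0307, range to 0.291), and at 10 h under 2 of 10, the replicate block (0.0479) and voom (0.0456, range to 0.720).

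Slc1a5, the exchanger that also carries glutamine, had 8.72 and 13.1 RPKM in control at 4 h, 12.8 and 11.8 at 7 h, and 11.8 and 11.8 at 10 h. In p38-MAPKi it had 14.2 and 13.0 RPKM at 4 h, 18.8 and 17.9 at 7 h, and 13.4 and 15.0 at 10 h. The groups overlapped at 4 h, and both p38-MAPKi libraries were above both control libraries at 7 h and 10 h. The log2 difference was 0.35 ± 0.22 (SE) at 4 h (limma, adjusted p = 0.656), 0.58 ± 0.18 at 7 h (0.0868) and 0.26 ± 0.0895 at 10 h (0.179). No time point passed by this fit, and 7 h passed under 4 of 11 other settings (adjusted p from 0.0348 to 0.206). The log2 difference was negative for Slc1a4 and positive for Slc1a5 at each time, and a difference between the 2 exchangers was not tested. The ratio of Slc1a5 to Slc1a4 was 5.04 and 3.94 in control and 8.15 and 8.35 in p38-MAPKi at 4 h, 9.81 and 8.21 against 29.6 and 38.4 at 7 h, and 5.74 and 4.68 against 16.3 and 11.1 at 10 h. At each time both p38-MAPKi libraries had the higher ratio. At 7 h the ratio rested on 28 and 32 reads of Slc1a4, whose direction the filter fixed there.

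**Figure D3:**
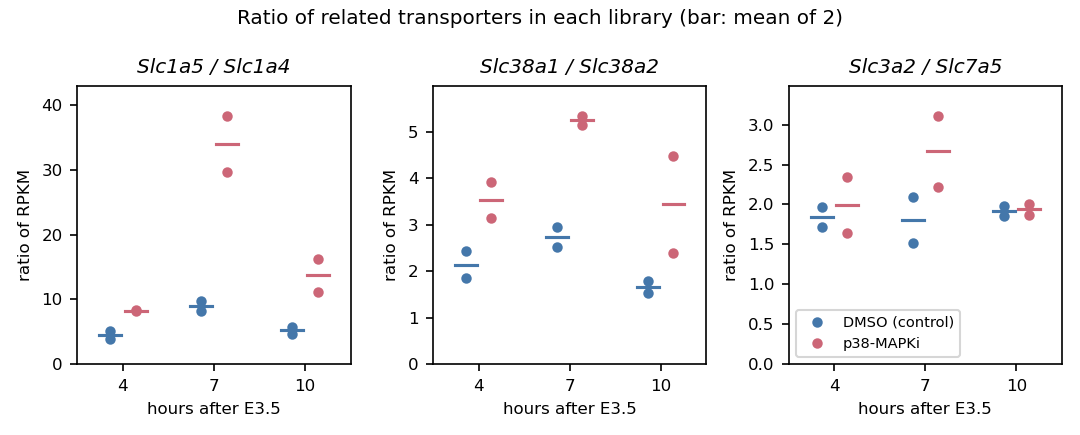
Ratio of RPKM (vertical axes from 0, no unit) of Slc1a5 to Slc1a4, Slc38a1 to Slc38a2 and Slc3a2 to Slc7a5 in each library against hours after E3.5, with a bar at the mean of 2 libraries, control in blue and p38-MAPKi in red. The Slc1a5 to Slc1a4 ratio is highest in p38-MAPKi at 7 h (29.6 and 38.4), where Slc1a4 and Slc38a2 met the filter through control alone. The Slc3a2 to Slc7a5 ratio overlaps between groups at 4 h and 10 h.

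The cationic carriers were low in all libraries. Slc7a1 lay between 1.16 and 2.06 RPKM in control and between 0.509 and 1.39 RPKM in p38-MAPKi, on 66 to 434 reads. Its p38-MAPKi libraries were below control at 7 h and 10 h, and its log2 difference was -0.64 ± 0.46, -1.07 ± 0.60 and -0.61 ± 0.26 (SE) at 4, 7 and 10 h (limma, adjusted p = 0.715, 0.270 and 0.256). At 7 h it met the filter through control alone, which fixed its direction, and the value there passed without p38-MAPKi replicate 2 (-1.52, adjusted p = 0.0174) but not with all libraries and no filter (0.256). Slc7a3 lay between 0.0606 and 1.22 RPKM over the 12 libraries, on 4 to 84 reads, and did not pass the filter. Tested without a filter, its differences were -0.74, -1.78 and -0.56, with limma adjusted p = 0.416, 0.247 and 0.644, and its libraries overlapped at 4 h and at 7 h.

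For the heterodimer of system L no difference between groups passed with all libraries. Slc3a2 stayed between 41.1 and 53.6 RPKM in the 12 libraries, with log2 differences of 0.06 ± 0.20, 0.17 ± 0.17 and -0.09 ± 0.065 (SE) at 4, 7 and 10 h (limma, adjusted p = 0.944, 0.528 and 0.481). The sign at 4 h turned under quantile normalization (-0.09). Both p38-MAPKi libraries of Slc3a2 were above control at 7 h and below it at 10 h. Slc7a5 stayed between 17.2 and 29.0 RPKM, with both p38-MAPKi libraries below control at 7 h (17.2 and 23.5 against 24.2 and 28.4 RPKM) and at 10 h. Its log2 differences were -0.03 ± 0.21, -0.38 ± 0.21 and -0.11 ± 0.078 (adjusted p = 0.975, 0.252 and 0.490), and its value at 7 h passed without p38-MAPKi replicate 2 (-0.61, adjusted p = 0.0499). The ratio of heavy to light chain overlapped between groups at 4 h and 10 h. At 7 h it was higher in both p38-MAPKi libraries, 3.11 in the shallow replicate 1 and 2.22 in replicate 2, against 2.10 and 1.52 in control.

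A comparison chosen after the data were seen averaged the p38-MAPKi effect over the 3 times in all 12 libraries. Limma called 3 of 8 transporters lower, against 5.94% of all genes, and 1 higher, against 4.2%. At an unadjusted p under 0.05 were 6 of 8, against 3570 of 11590 genes. Slc6a14 fell by 0.92 ± 0.12 (SE, limma adjusted p = 0.00327), Slc38a2 fell by 1.29 ± 0.22 (0.00924) and Slc1a4 fell by 0.996 ± 0.22 (0.0214), while Slc1a5 rose by 0.40 ± 0.10 (0.0338). Slc7a1 was at -0.77 ± 0.26 (0.0763), Slc38a1 at -0.40 ± 0.15 (0.0958), Slc7a5 at -0.17 ± 0.12 (0.354) and Slc3a2 at 0.05 ± 0.0735 (0.696). The median of the transporters was -0.59 and that of all genes -0.03. The calls of Slc6a14 and Slc38a2 were kept without any 1 of the 12 libraries, and that of Slc6a14 under all 10 other settings (adjusted p from 0.00124 to 0.0347). For Slc38a2 it was lost with no filter (0.0539).

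The averaged calls of the exchangers were less firm. That of Slc1a4 was lost with no filter (limma adjusted p = 0.0873) and without control replicate 2 of 4 h (-0.84, 0.0635), p38-MAPKi replicate 2 of 4 h (-0.97, 0.0545), control replicate 2 of 7 h (-0.97, 0.0636), control replicate 1 (-1.05, 0.0542) or 2 (-0.95, 0.0799) of 10 h, or p38-MAPKi replicate 1 of 10 h (-0.88, 0.0645). That of Slc1a5 was lost with no filter (0.147) or no variance trend (0.0714), and without control replicate 1 of 4 h (0.30, adjusted p = 0.0627), p38-MAPKi replicate 2 of 4 h (0.42, 0.0596), control replicate 2 of 7 h (0.38, 0.0905), p38-MAPKi replicate 1 of 7 h (0.38, 0.0565), control replicate 1 (0.39, 0.0854) or 2 (0.40, 0.0960) of 10 h, or p38-MAPKi replicate 1 (0.42, 0.0654) or 2 (0.37, 0.112) of 10 h. Slc7a1 passed with quantile normalization (0.0465) and voom (0.0248), 2 of 9 settings with a range to 0.215. It also passed without p38-MAPKi replicate 1 of 4 h (-0.94, 0.0315) or replicate 2 of 7 h (-0.92, 0.0228), and Slc38a1 without p38-MAPKi replicate 1 of 4 h (-0.52, 0.0234).

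The p38-MAPKi difference at 7 h went with gene length. The median log2 change of all tested genes was 0.53 for those under 1000 bases of exon, 0.27 from 1000 bases, 0.04 from 2000, -0.10 from 3000, -0.24 from 4000, -0.39 from 6000 and -0.53 from 9000 bases. At 4 h the median was 0.19 under 1000 bases and 0.22 from 1000 bases, and it fell to -0.18 from 9000 bases. At 10 h the medians ran from -0.05 to 0.02. The transporters were 3434 bases (Slc6a14), 3529 (Slc3a2), 3708 (Slc7a5), 3784 (Slc7a3), 3926 (Slc1a4), 4173 (Slc1a5), 4626 (Slc38a2), 8391 (Slc38a1) and 11530 (Slc7a1). Slc6a14 at 7 h (-1.64) lay below the median of its class, -0.10, whereas Slc38a1 at -0.60 was nearer to that of its class, -0.39. Slc1a4 (-1.33 against -0.10) and Slc38a2 (-1.54 against -0.24) were also below. These last genes met the filter through control alone, which fixed their direction. Slc7a1 (-1.07 against -0.53), which also met the filter through control alone, and Slc7a5 (-0.38 against -0.10) were below as well. Slc1a5 (0.58) was above the -0.24 of its class, and Slc3a2 (0.17) was above -0.10. The part of length in these differences was not tested beyond removal of the trend.

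**Figure D4:**
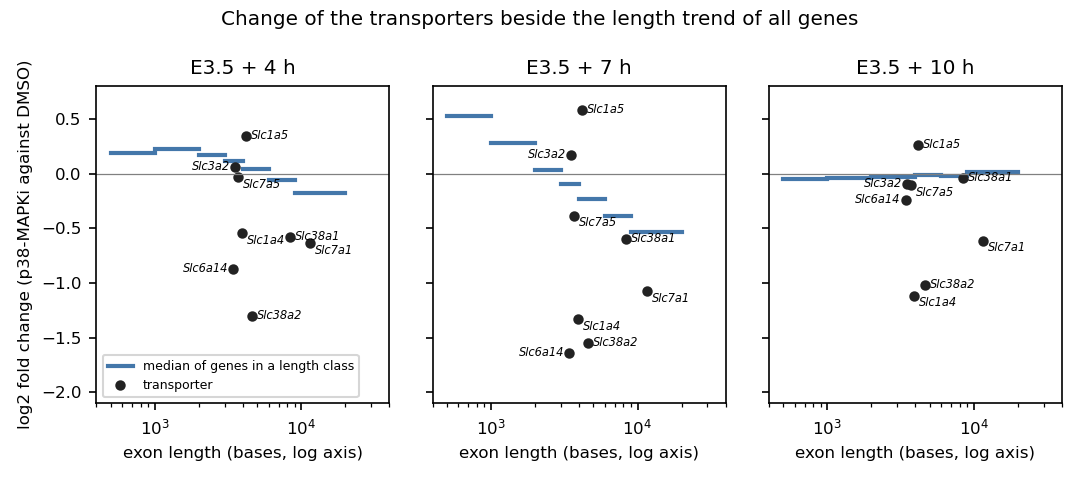
Log2 change in p38-MAPKi against control (vertical axis) against exon length in bases (log axis) at the 3 times, with black points for the 8 tested transporters and blue lines for the median of all tested genes in a length class, the first and last classes being open-ended. At 7 h the blue lines run from 0.53 to -0.53 and Slc6a14, Slc38a2, Slc1a4, Slc7a1, Slc7a5 and Slc38a1 lie under the line of their class. Of these, Slc38a2, Slc1a4 and Slc7a1 met the filter there through control alone, which fixed their direction.

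Other amino acid transporters were counted in a list of 44 genes from the same and related families. Of these, 14, 15 and 16 were tested at 4, 7 and 10 h, and limma called 0 in either direction at each time. At an unadjusted p under 0.05 were 0, 7 and 7, against 1016 of 10781, 3102 of 10940 and 2172 of 10959 genes. The median log2 change of the list was -0.04, -0.48 and -0.03, where that of all genes was 0.07, -0.14 and -0.02. The most abundant were Slc7a6, a light chain of CD98 that exchanges cationic for neutral amino acids (mean of 42.6 RPKM), the glutamate carrier Slc1a1 (34.0), Slc38a4 (28.9) and Slc38a7 (24.6). Over the 12 libraries each of these 4 had a higher mean than all of the 9 transporters but Slc3a2. At 7 h Slc1a1 had 38.2 ± 4.58 RPKM in control and 25.5 ± 1.95 in p38-MAPKi (SD, n = 2), with -0.58 ± 0.18 (limma, adjusted p = 0.0867), and Slc38a7 had 26.3 ± 0.933 and 16.6 ± 6.81 RPKM, with -0.73 ± 0.27 (0.120). Slc7a6 had -0.48 ± 0.18 (0.122) and Slc38a4 -0.18 ± 0.22 (0.599). Averaged over the times, 1 of 16 was lower, against 5.94% of all genes. It was Slc1a1 (-0.30 ± 0.078, adjusted p = 0.0343), named after its value was seen, and the call was lost in 9 of the 12 fits with a single library left out and under 3 of 10 other settings (0.0198 to 0.117). In the control over time, limma called 0 of this list in each comparison, with 0, 1 and 2 unadjusted (516 of 10776, 412 of 10873 and 1646 of 10825 genes).

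Genes through which mTORC1, the growth-promoting kinase complex, senses amino acids formed a list of 39, of which 37 were tested. At 4, 7 and 10 h limma called 0 in either direction. At an unadjusted p under 0.05 were 6, 10 and 9, against 1016 of 10781, 3102 of 10940 and 2172 of 10959 genes. The median of the list was -0.01, -0.14 and -0.02, close to that of all genes at 7 and 10 h. The most abundant were Lamtor2, a part of the lysosomal Ragulator (76.9 RPKM), Akt1s1 (55.3), the small GTPase Rragd (43.9) and the leucine sensor Sesn2 (42.4). Rragd had 54.7 ± 11.1 RPKM in control and 32.4 ± 0.204 in p38-MAPKi at 7 h (SD, n = 2), with -0.74 ± 0.19 (limma, adjusted p = 0.0614). Lamtor2 had 67.0 ± 17.5 and 122 ± 31.2 RPKM, with 0.86 ± 0.24 (0.0684). Averaged over the times, 2 of 37 were higher (4.2% of all genes) and 3 lower (5.94%), shares close to those of all genes, and they are named after their values were seen. Higher were Gatsl3, the arginine sensor also called Castor1 (0.35 ± 0.084, adjusted p = 0.0296), and Mlst8, a subunit of the complex (0.30 ± 0.079, 0.0349). Lower were Rragd (-0.44 ± 0.089, 0.0142), Flcn, which acts on Rag GTPases (-0.51 ± 0.10, 0.0134), and its partner Fnip1 (-0.50 ± 0.12, 0.0254). With each of the 12 libraries left out in turn, the calls were made in 4, 3, 10, 11 and 5 fits in this order, and each was lost under at least 1 other setting. In the control over time 0 were called, with 0, 0 and 3 unadjusted (516 of 10776, 412 of 10873 and 1646 of 10825 genes).

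The amino acid response, in which the factor Atf4 drives genes for amino acid synthesis, uptake and stress, was a list of 25 genes, with 21, 20 and 20 tested. Limma called 2 higher and 1 lower at 4 h (0.621% and 0.288% of all genes), 1 higher at 7 h (0.932%) and 1 lower at 10 h (0.465%). At an unadjusted p under 0.05 were 4, 4 and 9, against 1016 of 10781, 3102 of 10940 and 2172 of 10959 genes. The median of the list was 0.12, 0.12 and -0.19. Ddit3, a stress-induced transcription factor, had 5.29 and 7.42 RPKM in control and 13.2 and 16.2 in p38-MAPKi at 4 h. It had 8.18 and 6.47 against 21.6 and 18.9 at 7 h, and 6.38 and 7.60 against 12.2 and 10.98 at 10 h. Each p38-MAPKi library was above every control library. Ddit3 rose by 1.23 ± 0.23 at 4 h (SE, limma adjusted p = 4.52e-05) and by 1.47 ± 0.20 at 7 h (0.0397), and was at 0.73 ± 0.12 at 10 h (0.0561). Asns, which makes asparagine, had 13.0 ± 3.42 RPKM in control and 6.84 ± 1.27 in p38-MAPKi at 4 h (SD, n = 2) and fell by 0.91 ± 0.23 (adjusted p = 0.0123), with -0.54 at 7 h (0.370) and -0.65 at 10 h (0.102).

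Cebpb, a transcription factor, rose by 1.01 ± 0.26 at 4 h (SE, limma adjusted p = 0.0158), from 3.74 ± 1.61 to 7.26 ± 1.70 RPKM. It was at 1.26 ± 0.36 at 7 h (0.0702) and at -0.23 ± 0.23 at 10 h with overlapping libraries (0.616). Psat1, an enzyme of serine synthesis, fell by 0.51 ± 0.060 at 10 h (adjusted p = 0.0398), from 75.2 ± 1.117 to 52.7 ± 0.693 RPKM (SD, n = 2), after 0.12 at 4 h (0.886) and -0.22 at 7 h (0.576). Atf4 itself had a mean of 105 RPKM and -0.10, -0.06 and -0.39 at the 3 times, with adjusted p = 0.909, 0.819 and 0.0931. Other abundant genes were Eif4ebp1 (120 RPKM) and Ddit4 (64.0). Of the list, Asns, Atf3, Chac1, Nupr1, Pck2, Pycr1, Trib3 and Vldlr held TGATGNAA in the promoter, and Ddit3 held TGANTCA. The calls of this list at 4 h were made in 6 of 11 other settings for Ddit3, 5 of 11 for Asns and 2 of 10 for Cebpb. Ddit3 was lost without control replicate 1 (0.98, limma adjusted p = 0.369), Asns without control replicate 1 (-1.18, 0.129) or 2 (-0.64, 0.798) or p38-MAPKi replicate 2 (-0.72, 0.210), and Cebpb without control replicate 1 (0.55, 0.99998) or p38-MAPKi replicate 1 (0.77, 0.1004). At 7 h Ddit3 was called in 8 of 11 settings, lost with median centring (0.0694), the length trend removed (0.0994) and no variance trend (0.158), and lost without control replicate 2 (1.30, 0.253). At 10 h Psat1 was called in 8 of 11, lost with no filter (0.0696), no variance trend (0.156) and 1 fit over 12 libraries (0.815), and lost without control replicate 2 (-0.50, 0.0519). Averaged over the times, 1 of 21 was called higher, against 4.2% of all genes, and 0 lower (5.94%). It was Ddit3 (1.14 ± 0.11, adjusted p = 0.00183), and it was kept without any 1 library. In the control over time 0 of the list were called, with 3, 2 and 2 unadjusted (516 of 10776, 412 of 10873 and 1646 of 10825 genes).

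**Figure D5:**
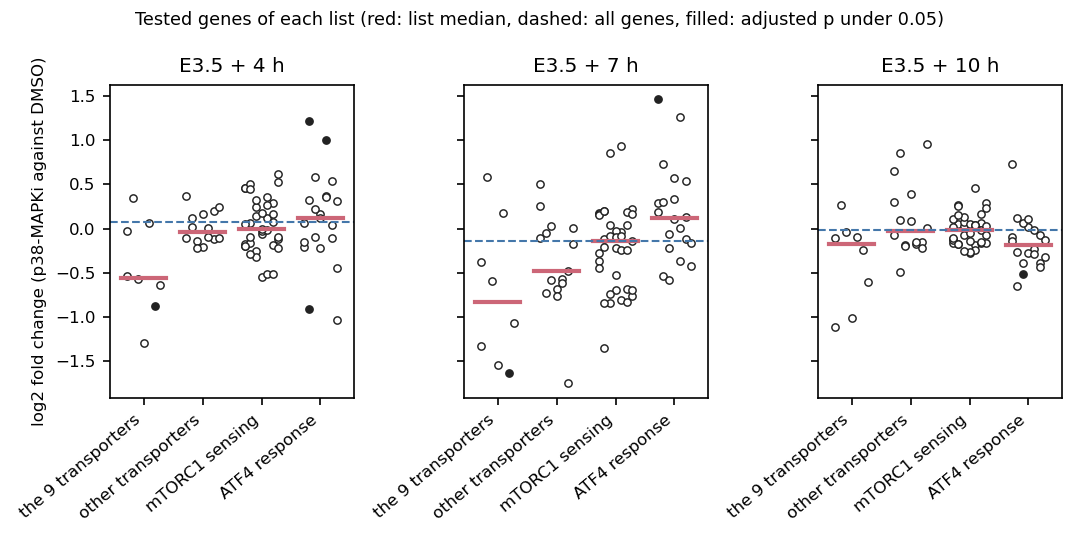
Log2 change in p38-MAPKi against control (vertical axis) of each tested gene of the 9 transporters and of the 3 lists at the 3 times, with red bars at the list median, a dashed line at the median of all genes and filled points at an adjusted p under 0.05. The red bar of the transporters is at -0.84 at 7 h, that of the other transporters at -0.48 and that of mTORC1 sensing at -0.14. Without the 3 of the 9 transporters that met the filter there through control alone, the first of these medians is -0.38.

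Lineage markers were read in the same comparisons. Of all genes, limma called 0.288%, 1.2% and 0.465% lower and 0.621%, 0.932% and 0.338% higher at 4, 7 and 10 h. At an unadjusted p under 0.05 were 1016 of 10781, 3102 of 10940 and 2172 of 10959 genes. Among trophectoderm markers limma called 0 of 9, 10 and 10 tested at these times (2, 3 and 3 unadjusted), and their median was 0.14, -0.30 and -0.01. Averaged over the times 5 of 10 were below 0, with a median of -0.04 against -0.03 for all genes. Krt18 and Krt8, the most abundant, were at 0.08 and 0.10. Limma called 2 of the 10 lower, against 5.94% of all genes, and 0 higher. These were Gata3 (-0.51 ± 0.078, limma adjusted p = 0.00649) and Cdx2 (-0.38 ± 0.075, 0.0138), and the call of Cdx2 was lost without control replicate 2 of 10 h (-0.37, 0.0578) or p38-MAPKi replicate 2 of 10 h (-0.38, 0.0555). Gata3 had 100 ± 13.9 RPKM in control and 62.2 ± 7.08 in p38-MAPKi at 7 h (SD, n = 2). Of 10 primitive endoderm markers tested, 8, 10 and 5 were below 0 at 4, 7 and 10 h (1, 4 and 2 unadjusted), with medians of -0.27, -0.44 and -0.02 where all genes had 0.07, -0.14 and -0.02. At 7 h both p38-MAPKi libraries were below both control libraries for 8 of 10 (38.7% of all genes). Averaged, all 10 were below 0, with a median of -0.28 against -0.03.

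Limma called 1 of these 10 lower at 7 h, against 1.2% of all genes, and 0 at 4 h and 10 h. It was Dab2 (-1.003 ± 0.19, limma adjusted p = 0.0461), from 52.4 ± 7.19 to 26.1 ± 3.03 RPKM, and the call was made under 7 of 11 other settings (0.00125 to 0.158) and lost without control replicate 1 (-0.86, 0.0833) or 2 (-1.14, 0.255). Averaged, 1 of 10 was lower (5.94%), again Dab2 (-0.50 ± 0.093, adjusted p = 0.0122), a call lost with no filter (0.0703). Of 12 epiblast markers 9 were below 0 in the averaged comparison, with a median of -0.17 against -0.03 for all genes, and 1 was called, higher (4.2%). This was Gdf3 (0.30 ± 0.087, adjusted p = 0.0479), named after its value was seen, and its call was lost in 9 of the 12 fits with a single library left out and under 5 of 10 other settings. At the single times limma called 0 epiblast markers (0, 3 and 4 unadjusted, against 1016 of 10781, 3102 of 10940 and 2172 of 10959 genes). Cd68, a macrophage marker, was higher in p38-MAPKi at 4 h (1.06 ± 0.27, adjusted p = 0.0188), a call made under 3 of 10 other settings (0.0192 to 0.383) and lost without control replicate 1 (1.02, 0.790), control replicate 2 (1.11, 0.266) or p38-MAPKi replicate 2 (0.71, 0.598). Its difference was 0.22 ± 0.33 at 7 h (0.683) and turned to -0.70 ± 0.11 at 10 h (0.0508), with both p38-MAPKi libraries below control. In control Cd68 was higher at 10 h than at 4 h (1.19, adjusted p = 0.0104), a call lost with no filter (0.0983) or 1 fit over 12 libraries (0.598). No other marker was called in the control over time. Of the blood and immune list Cd68 alone was tested, while Ptprc and Lyz2 had no read and Csf1r was under 1 RPKM in every library.

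The summed trophectoderm level was 1782 and 1946 RPKM in control and 1971 and 2002 in p38-MAPKi at 4 h. It was 2455 and 1865 against 2245 and 2110 at 7 h, and 2380 and 2620 against 2241 and 2528 at 10 h. These sums, led by Krt18, overlapped between groups at 7 h and at 10 h and were higher in p38-MAPKi at 4 h. The epiblast sum was 730 and 884 RPKM in control against 823 and 894 in p38-MAPKi at 4 h, 828 and 863 against 873 and 834 at 7 h, and 812 and 803 against 729 and 763 at 10 h. The primitive endoderm sum was 175 and 214 against 218 and 154 at 4 h, 214 and 233 against 149 and 152 at 7 h, and 226 and 215 against 232 and 217 at 10 h, so that at 7 h it was lower in both p38-MAPKi libraries. The blood and immune sum was 3.56 and 3.21 RPKM against 5.75 and 7.76 at 4 h, 5.10 and 5.03 against 7.98 and 4.67 at 7 h, and 6.73 and 6.87 against 4.28 and 4.30 at 10 h. This sum was mostly Cd68, which had 2.65 and 2.83 RPKM in control and 4.48 and 7.32 in p38-MAPKi at 4 h. The part of these markers in the transporter differences was not tested.

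The transporters were also compared by the pattern of their log2 values over the 12 libraries, which share treatment, time and depth, so Pearson r is a description only. Slc6a14 and Slc38a2 had r = 0.899, Slc6a14 and Slc38a1 0.862, Slc38a2 and Slc38a1 0.841, and Slc38a2 and Slc1a4 0.839. Slc7a5 was closest to Slc7a1 (0.851) and had r = -0.14 with its partner Slc3a2. Slc1a5 had r = 0.761 with Slc3a2 and -0.66 with Slc1a4. Among 9388 genes with at least 1 RPKM in all 12 libraries, the nearest to Slc6a14 were Rin3 (0.987) and Dnmt3b (0.983), the nearest to Slc38a2 were Arl14ep (0.955) and Etaa1 (0.950), and the nearest to Slc38a1 were Zranb3 (0.955) and Tbk1 (0.936). For Slc1a4 they were Igf2bp1 (0.925) and Trim28 (0.882), and for Slc1a5 Efna3 (0.962) and Stxbp2 (0.937). For Slc7a1 they were Usp25 (0.970) and Ephb4 (0.959), for Slc7a5 Rhot2 (0.959) and Pxn (0.951), and for Slc3a2 Gadd45g (0.906) and 2010107G23Rik (0.9002). Dnmt3b, a DNA methyltransferase, had 31.4 and 31.9 RPKM in control and 12.02 and 13.1 RPKM in p38-MAPKi at 7 h. At 4 h it had 25.96 and 29.2 against 22.6 and 16.7, and at 10 h the groups overlapped, with 31.9 and 35.5 against 32.8 and 32.3 RPKM.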

How the data were processed

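Messenger RNA of 12 libraries (pools of 30 blastocysts, 6 groups, 2 replicates each) was analysed. The authors had run Trim Galore 0.4.1 on the reads and HISAT2 2.0.5 against GRCm38, and they deposited log2 RPKM per gene. The library kit was directional. Whether counting used strand, and how multiple mapping was handled, were not stated in the sources used here. All value columns were used (0 left out).

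Genes with no read carry a floor of 0.9 read, from which depth (11242313 to 24457312 reads) and whole reads (34244 genes, tolerance 0.05) were recovered. Depth sets the precision of low genes, and their reads are given beside the values.

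Each comparison was fitted with limma 3.58.1 (lmFit, eBayes with trend) in R 4.3.3 to its own 4 libraries (interactions 8, the averaged comparison 12) over genes reaching 1 RPKM in 2 or more of them. Benjamini-Hochberg adjusted p under 0.05 over all genes tested was called. The procedure was tested on simulated data with independent noise for each value, which held no shifts between libraries and no length trend. That test therefore does not bear on how such features affect the calls. Python 3.11.15, numpy 2.4.6, pandas 2.3.3 and matplotlib 3.10.9 served for tables and figures.

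Named were all 9 members, the genes of each list called in 1 of 6 comparisons or among its 4 highest means, and for each member with a mean of at least 1 RPKM the 2 genes of highest correlation. Genes called in the averaged comparison alone (Gatsl3, Mlst8, Flcn, Fnip1 and Gdf3) lie outside this rule and are named after their values were seen. Also outside it are list genes named for a motif in the promoter, and marker genes named as under 1 RPKM or without a read. The members and lists, the rule and the motifs were chosen with earlier results of these data known. The other settings were median centring, quantile normalization, removal of the length trend by loess (span 0.5, degree 1), a 10 RPKM filter or none, pseudocounts of 0.1 and 1, eBayes without trend, a joint fit of all 12 libraries, a block for replicate number, voom on recovered reads, and each library left out. The averaged comparison and some settings for the interactions were chosen after seeing the data.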

Additional observations from a re-analysis of the deposited data

How the results depend on the processing

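Single-gene results kept their direction and side of the threshold in 702 values under other settings and in 348 with a library left out. They lost a call in 70 and 79, gained one in 17 and 15, and changed sign in 13 and 28. The 702 and 348 include results uncalled in both fits, so they do not measure how firmly the calls held. Of the 70 values that lost a call, 33 were in p38-MAPKi at 4 h. The cause of a change was not tested unless a setting's construction shows it. A left-out library leaves 1 in its group, which is taken to vary like the others. Fits at 10 RPKM hold 4 or fewer transporters, and Slc38a2, Slc1a4 and Slc7a1 had no value at 7 h without a control library. Depth limits Slc38a2, Slc1a4, Slc7a1 and Slc7a3.

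The number of transporters called at 4 h, 1, was 0 with no filter, median centring or quantile normalization, each of which called 0 of all genes. It was also 0 with eBayes without trend, 1 fit over 12 libraries, the replicate block or voom (11, 0, 75 and 33 of all genes). With log2(RPKM + 1) it was 2 (115 of 10781 genes). A 10 RPKM filter gave 0 because Slc6a14, under 10 RPKM in each library of 4 h, was not tested. At 7 h, 1 became 0 with median centring, quantile normalization, the length trend removed or eBayes without trend (0, 12, 1 and 0 of 10940 genes). It became 4 with 1 fit (2586 of 10940 genes), 2 with the replicate block (2023 of 10940) and 3 with voom (1732 of 10939). The 4 and the 3 included Slc38a2, and the 4 also Slc1a4, which both met the filter there through control alone. At 10 RPKM the 1 was Slc1a5 (limma adjusted p = 0.0499, 947 of 5081 genes called), as Slc6a14 was not tested. At 10 h, 0 became 1 with the replicate block (410 of 10959 genes) and 2 with voom (525 of 10958). In control 10 h against 4 h, 0 became 1 at 10 RPKM (276 of 5036 genes) and 1 with the replicate block (536 of 10825). The difference of 10 h and 7 h went from 0 to 1 at 10 RPKM (538 of 5397 genes) and with voom (897 of 11399). The averaged 4 became 1 with no filter (166 of 34245 genes), 2 at 10 RPKM (1041 of 5470) and 3 with eBayes without trend (577 of 11590). It became 5 with quantile normalization (1492 of 11590) or voom (1748 of 11589). With a library left out the counts were 0 to 3, 0 to 4 and 0 to 1 at 4, 7 and 10 h, 0 to 1 and 0 to 2 for control 10 h against 7 h and 4 h, 0 to 1 for the difference of 10 h and 7 h, and 2 to 6 averaged.

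Slc3a2 turned with quantile normalization at 4 h (-0.092) and averaged (-0.019). In control 7 h against 4 h, Slc7a5, Slc3a2 and Slc6a14 were -0.0102, -0.0503 and -0.0414 with median centring and -0.0094, -0.0395 and -0.0553 with quantile normalization. For 10 h against 4 h, Slc7a5, Slc3a2 and Slc7a1 were -0.0751, -0.0144 and -0.0739 with centring, and Slc7a5 and Slc7a1 -0.0494 and -0.11 with quantile normalization.

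With a library left out, signs turned in p38-MAPKi at 4 h for Slc7a5 (-0.31 to 0.24) and Slc3a2 (-0.0723 to 0.19) and at 10 h for Slc38a1 (-0.12 to 0.0466). They turned in control 7 h against 4 h for Slc7a5 (-0.14 to 0.33), Slc3a2 (-0.0766 to 0.19), Slc7a1 (-0.50 to 0.33), Slc38a1 (-0.40 to 0.0887), Slc1a5 (-0.0886 to 0.50) and Slc6a14 (-0.16 to 0.29). For 10 h against 7 h they did for Slc7a5 (-0.15 to 0.0798), Slc3a2 (-0.0509 to 0.18), Slc7a1 (-0.0325 to 0.33) and Slc38a1 (-0.13 to 0.34). For 10 h against 4 h they did for Slc7a5 (-0.17 to 0.30), Slc3a2 (-0.011 to 0.26), Slc7a1 (-0.35 to 0.48), Slc38a1 (-0.29 to 0.19), Slc38a2 (-0.14 to 0.74), Slc1a4 (-0.55 to 0.40) and Slc1a5 (-0.15 to 0.43).

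Whether replicate numbers pair libraries is not stated. The differences between replicates 1 and 2 correlated over genes between the 2 groups at -0.00834, 0.263 and 0.0908 for 4, 7 and 10 h.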
